A study of Homo sapiens with 2 samples.

Results

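To see where MYBL2 sits at the genes of homologous recombination and the Fanconi pathway, 40 genes were taken from the 20098 protein-coding genes of the annotation. The list is one of gene names, not of measured values, but it was drawn up with earlier results of these data known. It holds the BRCA complex, the group of XRCC2, XRCC3 and their relatives RAD51B, RAD51C and RAD51D, annealing and strand exchange factors, end resection, the RecQ helicases and their partners, the Fanconi core, FANCD2 and FANCI, the structure-specific nucleases, and a pair of other helicases. EXO1, RAD54L and PIF1 are also named in the text of the study, EXO1 and RAD54L among its survival-associated genes and PIF1 among genes that changed after MYBL2 knockdown. All 40 symbols were found in the annotation.

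The study profiled wild-type cells of A673, an Ewing sarcoma line long kept in culture, by chromatin immunoprecipitation followed by sequencing (ChIP-seq). The series holds 1 MYBL2 ChIP library and, as control, 1 library of input chromatin that was sheared but not precipitated, and neither is labelled with a treatment. The labels give the antibody as anti-MYBL2, and the study's methods describe it as directed at the phosphorylated, activated protein. With 1 library each there was no replicate, so no value below carries a replicate error and no test between conditions was possible. The intervals below are at 95% and cover counting error only. For pileups they are exact Poisson intervals. For fold enrichments the pileup interval was carried over with the background taken as fixed, so error of the background is left out. For shares they are exact binomial intervals, which treat the genes as independent draws although the list was chosen by name.

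Homologous recombination repairs broken or stalled DNA by copying a sister chromatid: ends are resected, a protein filament is built on the exposed strand, the strand invades its partner, and the joined molecules are dissolved or cut. The Fanconi pathway removes crosslinks between DNA strands by attaching ubiquitin to FANCD2 and FANCI, and then hands the break to recombination. Many of these genes are expressed most strongly in S and G2 phase. MYBL2 is a transcription factor of the MYB family that joins the MuvB complex at promoters of late cell cycle genes, where a MuvB subunit contacts an element called CHR, often found next to a CCAAT box, while E2F sites are typical of genes of the G1/S transition.

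The deposited list held 66954 peaks on 23 chromosomes. Each peak has a fold enrichment, a linear ratio of ChIP fragments at the summit to a background, as the authors' peak caller wrote it. Its exact form is given with the processing. The fragment pileup behind the fold enrichment was recovered from the deposited values. Over all peaks the fold enrichment had a median of 3.79 (range 1.54 to 64.9) and the pileup a median of 20 fragments (range 11 to 293). The lowest background, 3.45 fragments, corresponds to about 56800000 ChIP reads spread over the genome if a fragment of 164 bp is taken. This floor is the same at every peak that has it and is not a local input value. At the best peaks of 18 of the 40 genes the background was at this floor. Their fold enrichment therefore follows the ChIP pileup alone. The libraries used here hold no RNA, although the study also sequenced RNA of A673 and other lines with and without MYBL2 knockdown. Of 8 genes known as Ewing sarcoma markers, 5 had a promoter peak (NR0B1, NKX2-2, GLI1, LIPI and PRKCB) and 3 had none (STEAP1, CD99 and FATE1), so the peak list alone does not check the cell type.

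Promoters were taken as 1000 bp on each side of an annotated transcription start site (TSS), and a peak belonged to a promoter if at least 1 base overlapped. The best peak of a gene is the promoter peak with the highest fold enrichment. Sequences around 9 of the best peaks are printed here in the GRCh37 assembly (the coordinates of hg19), each as 101 bases on the strand of the gene, because they hold the study's named genes, the strongest peak and most of the members with a CHR, CCAAT or E2F match near the summit. Positions count from 0 at the canonical TSS, negative upstream. Capitals mark matches to the motifs searched on both strands: CHR (TTTGAA or TTCGAA), E2F (TTTGGCGC, TTTCCCGC, TTTGCCGC or TTTCGCGC), CCAAT, MYB (AACNG), ETS (CCGGAAGT) and NRF1 (GCGCATGC). A match on the other strand is printed as its reverse complement, and overlapping matches run together, as in the MYB and CHR matches of HELQ. The windows of EXO1, PIF1, XRCC2 and GEN1 were moved 11, 63, 53 and 54 bp upstream of the summit, so that at most 30 bases of the canonical transcript are shown. Alternative transcripts of some of these genes start further upstream.
RAD54L (chr1:46713341-46713441, plus strand, positions -94 to 6): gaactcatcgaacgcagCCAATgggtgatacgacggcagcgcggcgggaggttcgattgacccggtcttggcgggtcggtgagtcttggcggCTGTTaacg
EXO1 (chr1:242011435-242011535, plus strand, positions -71 to 29): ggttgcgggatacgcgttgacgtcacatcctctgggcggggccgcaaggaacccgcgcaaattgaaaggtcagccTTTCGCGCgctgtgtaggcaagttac
PIF1 (chr15:65117817-65117917, minus strand, positions -71 to 29): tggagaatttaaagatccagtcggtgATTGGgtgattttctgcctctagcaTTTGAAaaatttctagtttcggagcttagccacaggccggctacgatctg
RAD52 (chr12:1058869-1058969, minus strand, positions -109 to -9): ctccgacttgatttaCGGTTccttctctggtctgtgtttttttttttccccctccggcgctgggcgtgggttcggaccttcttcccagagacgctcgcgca
XRCC2 (chr7:152373197-152373297, minus strand, positions -71 to 29): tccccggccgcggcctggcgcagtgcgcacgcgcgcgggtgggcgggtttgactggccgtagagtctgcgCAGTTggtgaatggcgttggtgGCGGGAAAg
HELQ (chr4:84377073-84377173, minus strand, positions -197 to -97): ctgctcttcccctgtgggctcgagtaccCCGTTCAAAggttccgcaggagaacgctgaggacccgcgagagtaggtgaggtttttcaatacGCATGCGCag
GEN1 (chr2:17935334-17935434, plus strand, positions -71 to 29): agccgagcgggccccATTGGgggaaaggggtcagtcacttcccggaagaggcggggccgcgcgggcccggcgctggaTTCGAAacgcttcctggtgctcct
PALB2 (chr16:23652628-23652728, minus strand, positions -97 to 3): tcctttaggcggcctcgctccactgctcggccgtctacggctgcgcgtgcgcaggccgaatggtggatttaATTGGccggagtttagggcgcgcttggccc
UBE2T (chr1:202311206-202311306, minus strand, positions -242 to -142): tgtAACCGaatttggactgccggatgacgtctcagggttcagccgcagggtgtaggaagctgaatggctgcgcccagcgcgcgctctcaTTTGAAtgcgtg

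Every member had a promoter peak. The share was 40 of 40 (100%, binomial interval 91.2 to 100%), against 59.4% of all protein-coding genes. With a fold enrichment of at least 5 the count was again 40 of 40, against 49.6% of protein-coding genes. With at least 10 it was 28 of 40 (70%), against 23.1%. Counting only the canonical TSS of each gene, the form chosen by the annotation, a peak was found at 40 of 40 members and at 55.9% of all protein-coding genes.

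Most of the best peaks were also stronger than the typical promoter peak. Their fold enrichment had a median of 11.1 (quartiles 9.55 and 13.6, range 5.84 to 23.9), against 8.67 (quartiles 5.94 and 12.1) for the 11941 protein-coding genes with a promoter peak. Of the 40 members, 33 (82.5%) lay above that median. Counting error narrows this reading, since the interval of the fold enrichment lay above 8.67 for 19 members, held it for 19 and lay below it for 2, RAD51D and UBE2T.

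**Figure D1:**
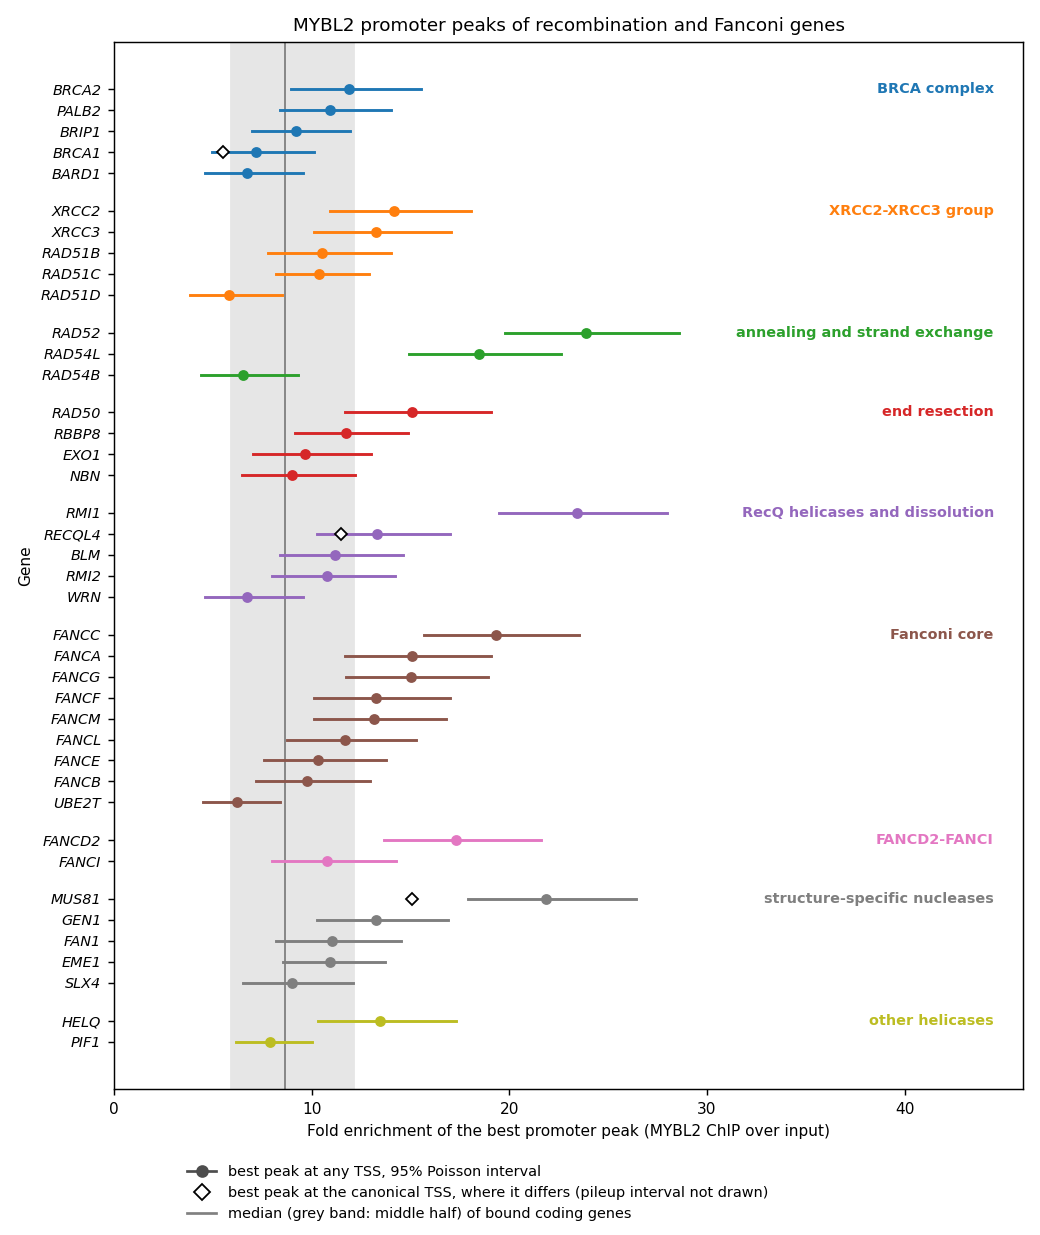
Fold enrichment of the best promoter peak (linear axis, MYBL2 ChIP over background) of the 40 genes, grouped by role. Lines are exact Poisson intervals of the summit pileup at 95%, carried to fold enrichment at a fixed background. The vertical line is the median of protein-coding genes with a promoter peak, 8.67, the grey band runs from 5.94 to 12.1, and open diamonds mark the canonical TSS where its best peak differs, at BRCA1, RECQL4 and MUS81. RAD52, RMI1 and MUS81 lie farthest right and RAD51D farthest left.

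These promoters differed from the average promoter in other ways. A CpG-rich promoter, with an observed/expected CpG ratio of at least 0.6 in the 500 bp either side of the canonical TSS, was found at 39 of 40 members (97.5%), against 65.9% of protein-coding genes. PIF1 was the exception, with a ratio of 0.543. Among protein-coding genes with a CpG-rich promoter, 78.9% had a promoter peak, and the median fold enrichment of those was 8.99, against 11.2 for the 39 CpG-rich members. The members also had more annotated TSSs, a median of 14 (from 1 at FANCF to 69 at FANCL) against 5, and so more windows in which a peak could be found. A protein-coding gene starting on the other strand within 1000 bp upstream was present at 11 of 40 members (27.5%), against 9.38% of protein-coding genes, and 95.9% of all genes with such a divergent partner had a promoter peak. Within those, the median fold enrichment was 11.9 for the 11 members and 10.7 for all. Without such a partner it was 11.0 for the 29 members and 8.31 for all. The part of CpG content, TSS number and neighbouring genes in the members' count and median was not tested.

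The summits lay close to annotated starts. The summit of the best peak lay a median of 40.5 bp from the nearest TSS, against 73 bp over all protein-coding genes with a promoter peak, and within 100 bp of it at 29 of 40 members (72.5%, against 58.6%). It was upstream of that TSS at 18 members (45%, against 54.2%). Against the canonical TSS, 35 of 40 summits (87.5%) lay within 250 bp, against 65.0% of all. The exceptions were BLM, FANCM, MUS81, RECQL4 and BRCA1. Relative to the canonical transcript, 20 summits lay upstream of it, 13 in the 5′ UTR, 5 in an intron, 1 in a coding exon (FANCA) and 1 downstream of the gene (RECQL4). The median peak width was 1002.5 bp, against 865 bp, and the median pileup 58.5 fragments, against 43, while the median background was 3.54 and 3.73 fragments.

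**Figure D2:**
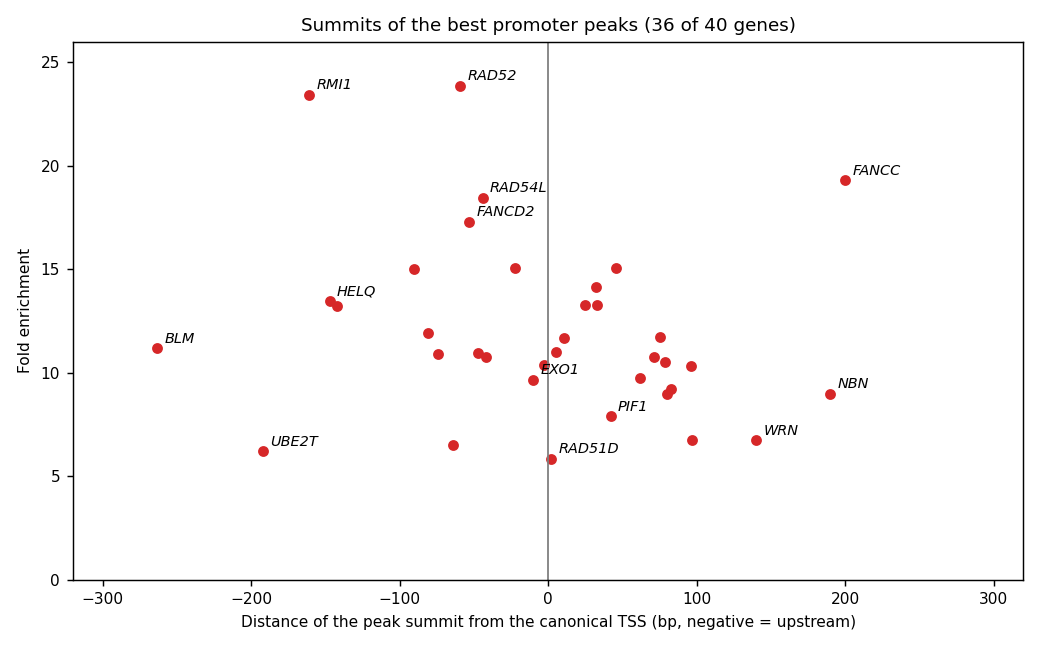
Distance of the summit of the best promoter peak from the canonical TSS (bp, negative upstream) against its fold enrichment, 1 point for each of the 36 genes whose summit lay within 400 bp. The summits sit on both sides of the TSS, and the strongest of them, at RAD52, lay at -59 bp.

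RAD52 carried the strongest peak of the set and RMI1, MUS81, FANCC and RAD54L followed. In the group of annealing and strand exchange factors, RAD52, which anneals complementary single strands, had its best peak at chromosome 12, 1057378 to 1059390, with the summit at -59 bp from the canonical TSS. The fold enrichment was 23.9, from 116 fragments (interval 95.9 to 139.1). It ranked 348 among all peaks, and 96.5% of protein-coding genes with a promoter peak had a weaker one. The intervals of 34 other members lay wholly below that of RAD52 and those of 5 overlapped it. A further RAD52 peak stood at the outermost TSS (1099166 to 1101027), with 14.0 on 75 fragments.

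RAD54L, a motor protein of strand invasion, had a narrow best peak of 450 bp at chromosome 1, 46713228 to 46713677. Its fold enrichment was 18.5 from 92 fragments (interval 74.2 to 112.8), with the summit at -44 bp. The sequence above shows a CCAAT match at -77 to -73 and a MYB match that spans the TSS, at -2 to 2. This peak was flanked by 2 weaker ones, at 46712831 to 46713043 (fold enrichment 5.71, 27 fragments) and 46713808 to 46714259 (4.47, 24 fragments). Its relative RAD54B stood at the other end of the range, with 6.51 from 28 fragments (interval 18.6 to 40.5) at chromosome 8, 95486941 to 95487631, the summit at -64 bp and a CCAAT match at -64 to -60 bp. The RAD54L and RAD54B intervals (14.9 to 22.6 and 4.40 to 9.32) did not overlap.

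The BRCA complex had the lowest median of the 9 groups, which held from 2 to 9 genes each. That median, 9.21, is the value of BRIP1, with an interval of 6.98 to 11.9, against 8.67 for all protein-coding genes with a promoter peak. Differences between the groups were not tested. In the BRCA complex, 2 of 5 genes reached a fold enrichment of at least 10. BRCA2, a mediator of strand invasion, led with 11.9 from 52 fragments (interval 38.8 to 68.2) at chromosome 13, 32889268 to 32890459, with the summit at -81 bp. The same peak covered the start of ZAR1L, a gene on the other strand. PALB2, the bridge between BRCA1 and BRCA2, reached 10.9 in a peak it shares with DCTN5, and its window above holds a CCAAT match at -26 to -22. BRIP1, a helicase that binds BRCA1, stood at 9.21.

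BRCA1, a ubiquitin ligase and organiser of the complex, depended on which TSS was counted. Its highest promoter peak, with a fold enrichment of 7.19 from 31 fragments, lay at chromosome 17, 41322257 to 41322854, at the start of NBR1, where an alternative BRCA1 TSS is annotated, and its summit lay at -45239 bp from the canonical TSS. At the canonical TSS, shared with NBR2, the peak at 41277075 to 41277797 reached 5.50 on 25 fragments (interval 16.2 to 36.9). BARD1, the partner of BRCA1 in the ligase, had 6.74 from 29 fragments (interval 19.4 to 41.6) at chromosome 2, 215673554 to 215674455, with the summit at 97 bp in the 5′ UTR. The intervals of BRCA2 and BARD1 (8.95 to 15.5 and 4.59 to 9.58) overlapped.

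XRCC2, XRCC3, RAD51B, RAD51C and RAD51D, related proteins that form complexes early in strand invasion, had a median of 10.5. XRCC2 led with 14.2 from 62 fragments (interval 47.5 to 79.5) at chromosome 7, 152372683 to 152373855. Its summit lay at 32 bp in the 5′ UTR, next to an E2F match at 21 to 28. XRCC3 followed with 13.3, in a peak shared with ZFYVE21, then RAD51B with 10.5 and RAD51C with 10.4, in a peak shared with TEX14 and IGBP1C. RAD51C had the second-highest background of all members, 6.53 fragments, so that its pileup of 77 fragments exceeded that of XRCC2 although its fold enrichment was lower. RAD51D was the weakest of the 40, with 5.84 from 25 fragments (interval 16.2 to 36.9) at chromosome 17, 33446417 to 33446992 and the summit at 2 bp. That peak also overlapped the promoter of another annotated protein-coding gene. Of protein-coding genes with a promoter peak, 23.5% had a weaker one. The RAD51D interval of 3.86 to 8.52 did not overlap that of XRCC2 (10.9 to 18.1) or of XRCC3 (10.1 to 17.1).

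End resection was led by RAD50, the ATPase of the complex that first holds a broken end. Its best peak (chromosome 5, 131892397 to 131893564) reached 15.1 on 66 fragments (interval 51.0 to 84.0), with the summit at -22 bp, and it also overlapped the promoter of IL5. RBBP8, which starts resection and is also called CtIP, had 11.7 from 67 fragments, and NBN, a partner of RAD50, had 8.99 from 39. EXO1, the exonuclease that extends resection, stood below the members' median with 9.66 from 42 fragments (interval 30.3 to 56.8). Its peak spanned chromosome 1, 242011069 to 242011699, with the summit at -10 bp and an E2F match just after the TSS, at 4 to 11. EXO1 was above 57.9% of protein-coding genes with a promoter peak and the interval of its fold enrichment held their median.

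Among the RecQ helicases and the genes of dissolution, RMI1 stood apart. RMI1 is a subunit of the complex with BLM that dissolves joined DNA molecules. Its fold enrichment was 23.4 from 121 fragments (interval 100.4 to 144.6), with the summit at -161 bp. Its peak was the widest of the best peaks, 8976 bp (chromosome 9, 86587907 to 86596882). RMI1 itself starts at 86595713, so most of that width lay upstream of the gene, on the side of HNRNPK. The peak also covered the start of HNRNPK, the gene of an RNA-binding protein, 590 bp away on the other strand, and it is 1 line of the list with 1 summit. RMI2, the other small subunit, had 10.8 from 48 fragments in a narrower peak of 636 bp. BLM, the helicase of the complex, had 11.2 from 52 fragments with the summit at -263 bp.

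RECQL4, a helicase with a role in replication initiation, reached 13.3 at the start of the neighbouring gene MFSD3, 8657 bp downstream of its canonical TSS. The peak at its own start had 11.5 from 64 fragments. WRN, the helicase lost in Werner syndrome, had 6.74 from 29 fragments (interval 19.4 to 41.6) at chromosome 8, 30891361 to 30891886, in a peak shared with PURG, and the summit lay at 140 bp. The intervals of RMI1 (19.5 to 28.0) and WRN (4.59 to 9.58) did not overlap.

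The Fanconi core, the ligase complex that marks FANCD2 and FANCI, had a median of 13.1 over 9 genes, and 7 of them reached at least 10. FANCC led with 19.3 from 96 fragments (interval 77.8 to 117.2) at chromosome 9, 98078681 to 98080657. The FANCC summit lay at 200 bp in an intron of the canonical transcript, and an E2F match at -46 to -39 fell outside the summit window. FANCA had 15.1 from 66 fragments and was the only member with the summit in a coding exon, at 46 bp. FANCG (15.0), FANCF (13.2, shared with GAS2) and FANCL (11.7), the ubiquitin ligase subunit, followed, then FANCE (10.3) and FANCB (9.75, shared with MOSPD2).

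FANCM, the DNA translocase that brings the core to chromatin, had its highest peak (13.1 from 62 fragments) with the summit at -1731 bp, at the start of FKBP3. The peak whose summit lay at its own TSS had 7.16 from 32 fragments. UBE2T, the enzyme that passes ubiquitin to FANCL, was the second-weakest member with 6.22 from 40 fragments (interval 28.6 to 54.5) at chromosome 1, 202310730 to 202311594. Its background of 5.60 fragments was above the floor, its summit lay at -192 bp, and a CHR match stands near the downstream end of its window above. The interval of UBE2T (4.48 to 8.41) lay below those of FANCC, FANCA and FANCG.

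FANCD2, the substrate that carries the ubiquitin, had a peak of only 368 bp at chromosome 3, 10067861 to 10068228. Its fold enrichment was 17.3 from 76 fragments (interval 59.9 to 95.1), with the summit at -53 bp. An ETS match lay at -70 to -63 and an E2F match at -2 to 5, across the TSS. FANCI, its partner in the clamp, had 10.8 from 47 fragments, and the intervals of the pair (13.7 to 21.6 and 7.98 to 14.3) overlapped.

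Of the structure-specific nucleases, MUS81 had the highest value, 21.8 from 105 fragments (interval 85.9 to 127.1), but the summit of that peak (chromosome 11, 65623885 to 65626126) lay at -2303 bp, at CFL1, the gene of the actin-binding protein cofilin. The peak nearer to the canonical TSS of MUS81 (65626337 to 65628675, summit at -697 bp) had 15.1 from 74 fragments. EME1, the partner of MUS81, had 10.9 from 71 fragments in a peak shared with MRPL27. GEN1, which cuts Holliday junctions, had 13.3 from 64 fragments, shared with SMC6, a gene of a chromosome maintenance complex. FAN1, a nuclease of crosslink repair, had 11.0 and SLX4, the scaffold that holds several nucleases, 9.0 in a peak that also covers an annotated start of DNASE1.

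The other helicases were HELQ and PIF1. HELQ, which unwinds DNA at stalled forks, had 13.5 from 59 fragments (interval 44.9 to 76.1) at chromosome 4, 84376714 to 84377454, with the summit at -147 bp on the side of its divergent neighbour MRPS18C. PIF1, a helicase that unwinds G-quadruplexes and acts in break-induced replication, had 7.92 from 66 fragments (interval 51.0 to 84.0) at chromosome 15, 65117230 to 65118539, with the summit at 42 bp. The PIF1 pileup equalled those of RAD50 and FANCA, whose fold enrichment was 15.1. The difference lay in the background, 7.46 fragments at PIF1, the highest of all members, against the floor of 3.45 at RAD50 and FANCA. Over the 40 members the background was at the floor, within 0.001 fragments, for 18. How often it was at the floor over all protein-coding genes is not given here.

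Several peaks therefore stood for more than 1 gene. The best peak overlapped the promoter of another protein-coding gene at 18 of 40 members (45%), against 30.7% of all protein-coding genes with a promoter peak. The assay does not tell which of the genes at such a peak the signal belongs to. Of the 40 genes, 17 had 1 promoter peak and 23 had 2 or more, with a maximum of 10 at FANCA, which has 28 annotated TSSs. The matching share over all protein-coding genes is not given here, and the members had more TSSs (median 14 against 5). The 40 genes had 95 promoter peaks in all, and the 55 that were not the best of their gene had a median fold enrichment of 4.02.

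With only the outermost TSS of each gene counted, the best peak of 8 members changed by over 1.5 times or was lost. How many of all protein-coding genes changed as much was not counted. Under that choice 35 of 40 members had a promoter peak, against 53.2% of all protein-coding genes. The value fell from 23.9 to 14.0 at RAD52, from 19.3 to 5.30 at FANCC and from 18.5 to 5.71 at RAD54L. No peak was at the outermost TSS of RBBP8, FAN1, RMI2, NBN and RAD51D, which had 11.7, 11.0, 10.8, 8.99 and 5.84 at another TSS. At these 8 genes the highest peak was at the canonical TSS and not at the outermost one.

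To set the genes beside the rest of DNA repair, 108 other repair genes were placed in 6 lists. Other recombination genes had a promoter peak at 33 of 33 genes and a median of 10.6. Other Fanconi genes had it at 12 of 12 with a median of 10.2, and FAAP100, a core subunit, led them with 23.4. End joining genes gave 16 of 16 (10.8), nucleotide excision repair genes 19 of 20 (10.9, GTF2H2 without a peak), base excision repair genes 18 of 18 (9.54) and mismatch repair genes 9 of 9 (11.9). The median of the 40 members, 11.1, lay within the range of these 6 medians. These lists were written with earlier results of the data known and differences between them were not tested.

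**Figure D3:**
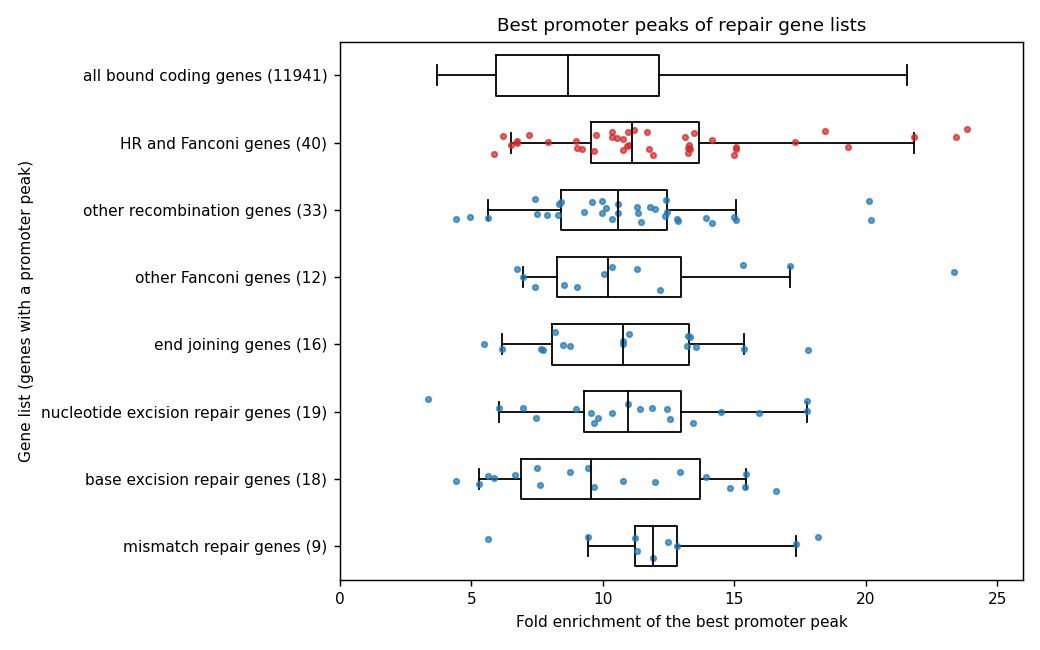
Fold enrichment of the best promoter peak (linear axis) of all protein-coding genes with a promoter peak, of the 40 recombination and Fanconi genes (red points) and of 6 lists of other repair genes (blue points), with the number of genes with a peak in brackets. Boxes show quartiles and median and whiskers the 5th and 95th percentiles, and all 7 lists have a median above the 8.67 of all protein-coding genes.

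The motifs described above were searched within 50 bp of the summit of each best peak and compared with the 10178 best promoter peaks of all protein-coding genes. A CHR match was found at 3 of 40 members (7.5%, against 3.88%), HELQ, GEN1 and UBE2T. An E2F match was found at 3 (7.5%, against 1.75%), XRCC2, RMI2 and EXO1. A CCAAT match was found at 4 (10%, against 9.72%), RAD54L, PALB2, RMI2 and RAD54B. The MYB match, a short sequence that is common in any DNA, was found at 18 (45%, against 38.7%). ETS matches stood at 3 members (7.5%, against 3.48%), FANCD2, BRCA2 and EME1, and an NRF1 match at 1 (2.5%, against 1.25%), HELQ.

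With 40 genes these shares are imprecise. The binomial interval of a count of 3 ran from 1.57 to 20.4% and that of the MYB share from 29.3 to 61.5%. For all 6 motifs the interval held the share over all promoter peaks, for E2F (1.75%) close to its lower end. Because the genes were chosen by name and are not a random draw, this is no test of the motifs. At points 500 bp to either side of the same summits, MYB matches were at a mean of 22.5 members (56.25%, against 40.2% of all best promoter peaks). ETS and NRF1 matches were at 0 there, and also rare over all best promoter peaks (0.280% and 0.290%). None of the 6 motifs was near the summit of 15 members, whose median fold enrichment was 11.7. The median was 10.9 for the 9 members with a CHR, CCAAT or E2F match and 11.2 for those without.

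**Figure D4:**
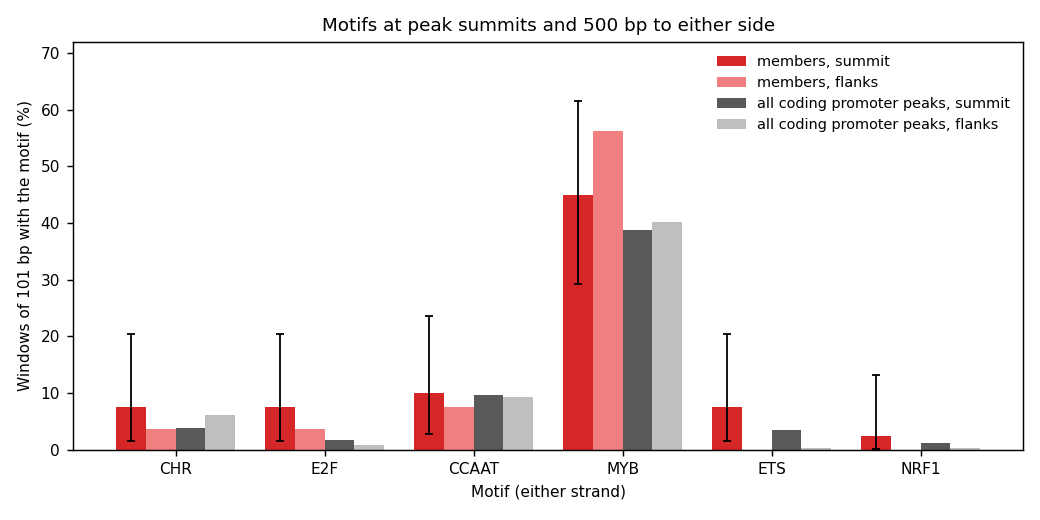
Share of windows of 101 bp that hold each motif (%, either strand), at the summits of the members' best promoter peaks, 500 bp to either side, and the same for all best promoter peaks of protein-coding genes. Lines are exact binomial intervals at 95% of the members' summit shares, and MYB is the only motif near or above 40% in all 4 bars.

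Motifs were also counted around the canonical TSS, from 100 bases before it to 29 after, a window chosen after the summit counts were seen. A CCAAT match was there at 16 of 40 members (40%), against 22.1% of protein-coding genes, and an E2F match at 6 (15%), against 1.99%. In the longer RefSeq promoters, 250 bases before the start to 50 after, the CCAAT shares were 38.2% of 34 members and 35.7% of all 27305 RefSeq promoters. That set is not the protein-coding genes used above. The E2F matches around the canonical TSS were those of EXO1, FANCC, FANCD2, RMI1, RMI2 and XRCC2. A CHR match stood there at 2 members, PIF1 and GEN1 (5.0%, against 4.83%), and both also had a CCAAT match, a pair found at 1.35% of protein-coding genes. In PIF1 the CHR match began at -20 and the CCAAT match at -45, with 20 bases between them. In GEN1 they began at 6 and -56, with 57 bases between. Both pairs can be read in the sequences above. A match describes letters in these windows and not occupancy of a site.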

How the data were processed

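MYBL2 ChIP and input DNA of A673 cells were sequenced as single-end reads. Per the submitters' processing notes, the authors used Bowtie2 2.1.10, MACS2 2.0.10 and the build hg19, and per the study's methods the input served as control for narrow peak calling. What the cleaning of the deposited list removed is not given in the sources used here. The deposited columns hold fold enrichment (a linear ratio), −log10 p, −log10 q and a score of 10 times −log10 q, all written by the authors' peak caller.

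Here, peaks were joined to GENCODE v44lift37 genes on GRCh37 with Python 3.11.15, pandas 2.3.3, numpy 2.4.6, scipy 1.17.1 and pysam 0.24.0. Fold enrichment is (pileup + 1) / (background + 1) in MACS2, and p is an upper Poisson tail. Solving both together gave whole-number pileups for 66954 of 66954 peaks. The misfit in −log10 p was at most 3.49e-05, and the neighbouring whole numbers missed by 0.00383 or more. The read total rests on a genome size of 2700000000 bp and a fragment of 164 bp. The steps were tested on simulated data.

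No test was made, since each group had 1 library. Counts and medians of the genes are set beside those of all protein-coding genes. The members and lists were chosen with earlier results of these data known. Full values are given for EXO1, RAD54L and PIF1, the 5 strongest and 5 weakest members and the strongest of each role group. Alternatives changed the promoter window, the TSSs counted, the overlap, the peak threshold, the ranking by −log10 q and the motif window. RefSeq promoters (250 bases before to 50 after the start, GRCh38.p14) matched 34 of 40 members and served only for motif counts. A further gene and a further promoter sequence are not reported here.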

Additional observations from a re-analysis of the deposited data

How the results depend on the processing

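The series has 1 ChIP library, so no value has a replicate error, and a pileup of 25 fragments has an interval of 16.2 to 36.9. No paired analysis was possible because the ChIP and the input had 1 library each. The counts at the canonical TSS and in the window around it were chosen after seeing the data. Of 96 counts and medians recomputed, 80 stayed within 1.5 times their value, and of 153 values of 17 single members 147 did not move beyond their counting interval. The peak thresholds, a fold enrichment or a −log10 q of at least 5, could not move any member's value or the count of 40. Every best peak passed both, the lowest being RAD51D with 5.84 and a −log10 q of 11.3. The members with a promoter peak numbered 35 with the outermost TSS only and 40 under each other alternative. Their median fold enrichment lay between 10.9 and 11.1. The values that moved were MUS81 (15.1 with the summit in the window or the canonical TSS only) and, with the outermost TSS only, RAD52 (14.0), FANCC (5.30), RAD54L (5.71) and RAD51D (no peak).

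The motif counts moved with the window, as its length dictates in part. Within 100 bp of the summit, 5 members had a CHR match (12.5%, against 7.38% of all best promoter peaks), 5 E2F (12.5%, against 3.44%), 11 CCAAT (27.5%, against 19.7%) and 2 NRF1 (5.0%, against 3.09%). The mean of the points 500 bp either side was 1.5 members for CHR (3.75%, against 6.13% of all best promoter peaks) and 1.5 for E2F (3.75%, against 0.919%). It was 0 for ETS and 0 for NRF1, against 0.280% and 0.290% of all. In the RefSeq promoter window, 5 of 34 members had CHR (14.7%, against 16.6% of all RefSeq promoters), 6 E2F (17.6%, against 3.33%), 13 CCAAT (38.2%, against 35.7%), 6 ETS (17.6%, against 4.44%) and 3 NRF1 (8.82%, against 3.27%). Around the canonical TSS, 6 had E2F (15%, against 1.99% of protein-coding genes), 16 CCAAT (40%, against 22.1%) and 2 NRF1 (5.0%, against 2.80%). The cause of the other changes was not tested.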

Other observations

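Peaks inside the genes, promoter peaks included, were also counted. Per 10 kb of gene the 39 members of at least 5000 bp had a median of 0.341 peaks, against 0.275 for 17227 protein-coding genes. Among those with a CpG-rich promoter the order was reversed, with 0.335 for 38 members and 0.445 for 12033 protein-coding genes. XRCC3 had the highest density, 15 peaks in 17.9 kb (8.38 per 10 kb), above 99.0% of protein-coding genes, followed by MUS81 (7 peaks, 6.65 per 10 kb) and RECQL4 (4 peaks, 6.10 per 10 kb). FANCA held 28 peaks in 90.3 kb (3.10 per 10 kb, above 91.7%). RMI2 held 20 in 132.0 kb. RAD51B, the longest member at 910.4 kb, held 21 peaks, which is 0.231 per 10 kb. At 19 of 40 members no peak but the promoter peaks lay within the gene, a count without a matching share over all protein-coding genes here. Copy number in these cells was not measured here, and its part in these densities was not tested.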
